A study of Mus musculus with 3 samples.

Results

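Iron-responsive mRNAs code for proteins that store, import or export iron and carry a short hairpin, the iron-responsive element, in an untranslated region (UTR). The set was fixed by gene name as Fth1, Ftl1, Tfrc, Slc11a2 and Slc40a1, that is 5 genes, and every row of their transcripts was kept. Of these, 4 genes with 5 transcript models had listed cytosines, out of 13224 named genes and 15021 transcript models in all. No cytosine of Fth1, which codes for the heavy chain of ferritin, was listed in any of the 3 tables, so Fth1 was not analysed here.

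Iron regulatory proteins bind the hairpin when a cell is short of iron. At the 5′ end of an mRNA, as in Fth1, Ftl1 and Slc40a1, binding blocks translation, whereas in the 3′ UTR of Tfrc it protects the mRNA from decay. A hairpin is also known from the 3′ UTR of some Slc11a2 mRNAs. Bisulfite turns unmodified cytosine into uracil, and it reacts with unpaired cytosines, so that stably paired stems are a known place of incomplete conversion in such assays.

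The libraries were mRNA bisulfite libraries from 3 samples of J1 mouse embryonic stem cells with the genotype Tet1-/-,Tet2-/-,Tet3-/-, which lack the enzymes that oxidise 5-methylcytosine. The cells had grown with mouse embryonic fibroblasts as feeders, which were then depleted by plating, and the RNA was selected for polyadenylation. All samples belong to this 1 group, so the comparisons are between stretches of the same transcripts and between transcripts. The labels do not say whether the samples came from separate cultures or from how many clones. P-values that take the libraries as replicates then measure only the spread between these libraries, which may be technical. Those of single cytosines rest on read counts instead. No iron treatment is named in the labels.

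Summed coverage of all cytosines was 139884444 to 151362866 reads per library, and the library-wide unconverted share, the background of all comparisons, was 1.41% to 1.53%. The 8 stem cell markers were all listed and took 0.417% to 0.429% of the coverage. Of 8 fibroblast markers 5 were listed, at 0.0278% to 0.0471%, while Postn, Lum and Dcn were not. Erythroid, macrophage and liver or yolk sac markers stood at 0.000137% or below. The part of feeder RNA in the values of the iron genes was not tested.

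The 4 genes differed widely in how deeply they were read. Ftl1 (NM_010240.2), the light chain of the iron store ferritin, had 1582, 1559 and 1500 reads per listed cytosine in replicates 1, 2 and 3, and 35 of 12708 models had more. Tfrc (NM_011638.4), the transferrin receptor that takes up iron-loaded transferrin, had 31.8, 28.9 and 24.6 reads per listed cytosine. Slc11a2, the divalent metal transporter that carries iron across endosomal and gut membranes, was listed as 2 models with different ends.

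Its longer model, NM_001146161.1, had 16.0, 13.7 and 13.6 reads per listed cytosine. The shorter one, NM_008732.2, had 6.38, 6.27 and 6.17. Slc40a1 (NM_016917.2), the iron exporter ferroportin, had 4.38, 4.60 and 5.60, close to the listing minimum of 3 reads. The median model had 10.7 reads per listed cytosine. In this order no neighbours overlapped in their 3 library values. Coverage per cytosine is only a rough measure of abundance, since a gene's reads are split among its models and cytosines under 3 reads are not listed.

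The unconverted share of each iron mRNA lay near the background. In Ftl1 it was 1.56%, 1.44% and 1.42% in replicates 1, 2 and 3, against 1.53%, 1.45% and 1.41% in the whole libraries. In Tfrc it was 1.58%, 1.45% and 1.37%. In both genes replicate 1 was highest and replicate 3 lowest, as in the whole libraries.

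The longer Slc11a2 model was below the background in each library, with 1.33%, 1.16% and 1.06%. Its counting intervals (95% Wilson, counting error only) reached the background of the library in all 3 cases, for example 0.784% to 1.43% in replicate 3. The shorter model had 2.10%, 1.07% and 1.47%, and Slc40a1 had 0.859%, 1.33% and 1.88%, from 451 to 1028 reads per library. Both spread over a wider range than the libraries, which their depth allows.

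**Figure D1:**
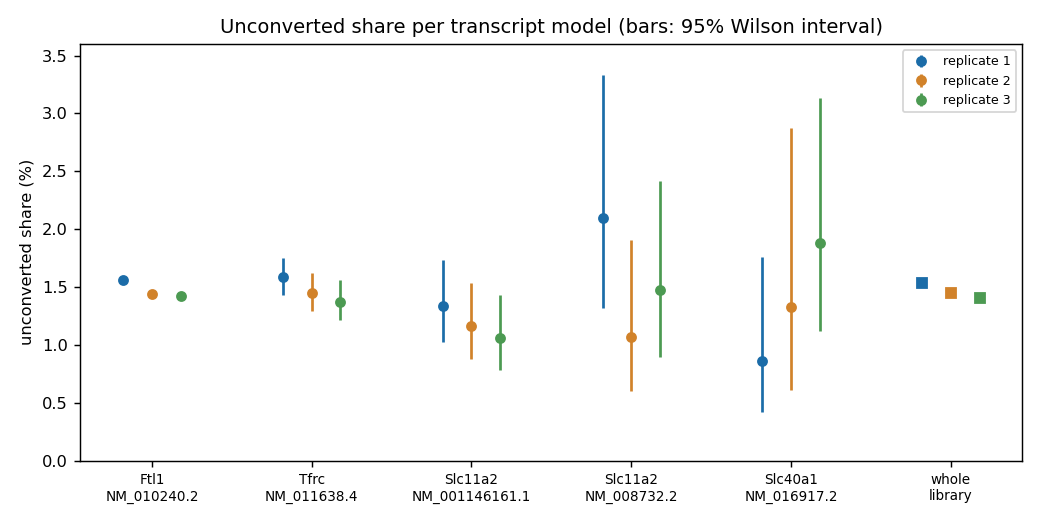
Unconverted share in percent (y axis) of each transcript model and of the whole library in each of the 3 replicates, with 95% Wilson intervals as bars on the model values (hidden by the point for Ftl1). Ftl1 and Tfrc follow the libraries closely, the longer Slc11a2 model lies lower at 1.06% to 1.33%, and the thinly read models scatter from 0.859% to 2.10%.

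A fit over all transcript models with a summed coverage of at least 500 reads in every library compared each model with its library (limma, log2 odds of an unconverted read, Benjamini-Hochberg adjustment). It called 0 of 8484 models higher (0%) and 0 lower (0%), with 1474 at an unadjusted p below 0.05. The difference was 0.0103 for Ftl1 (95% interval -0.12 to 0.14, adjusted p = 0.923) and 0.00694 for Tfrc (-0.13 to 0.14, adjusted p = 0.954). For the longer Slc11a2 model it was -0.30 (-0.48 to -0.12, adjusted p = 0.203, lower in 3 of 3 libraries), a value that 4.49% of all models fell below. For the shorter one it was 0.0788 (-0.46 to 0.62, adjusted p = 0.851). Slc40a1 had under 500 reads in replicate 2 and did not enter the fit.

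Single cytosines were then tested. A cytosine was testable with at least 10 reads in every library, and an exact binomial test (one-sided) asked whether its unconverted reads exceeded the library background. Fisher's method joined the p-values of the libraries, and the Benjamini-Hochberg adjustment ran over every testable cytosine. Candidate methylated sites were those with an adjusted p below 0.05, at least 10% unconverted on average, and more than the background in every library. These p-values treat reads as independent and hold no spread between libraries.

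None of the 706 testable cytosines of the iron mRNAs was a candidate, against 0.0473% of all 1639820 testable cytosines. The exact 95% upper limit for a count of 0 in 706 is 0.521%, so a rate like that of all cytosines was within reach of this count. The highest mean share of any testable cytosine was 8.55%. Before adjustment, 70 cytosines (9.92%) had a combined p below 0.05, against 3.32% of all testable ones. Of the 70, 58 were among 298 cytosines of Ftl1, the deepest of these mRNAs, 11 among 318 of Tfrc and 1 in the longer Slc11a2 model. When the largest library p-value replaced the combined one, again 0 were candidates.

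Testable were 298 cytosines of Ftl1, 318 of Tfrc, 75 of the longer and 15 of the shorter Slc11a2 model, and 0 of Slc40a1. Depth set what could be seen. At the median testable coverage of Ftl1, 758 reads, a cytosine with 0 unconverted reads could still have a share of 0.396% in a library (3 counts of the total). In Tfrc that limit was 11.6%, in the longer Slc11a2 model 12.2% and in the shorter one 22.5%. These limits hold for each library on its own, whereas the level that a candidate needed was a mean over the libraries. A limit over all libraries together was not computed, so these values cannot be set against that level. In Tfrc 106 of the 318 cytosines had no unconverted read in any library.

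Below 10%, 27 cytosines of the iron mRNAs passed the adjusted test and lay above the background in each library, 25 of them in Ftl1 and 2 in Tfrc. Of all testable cytosines 0.469% did so. Ftl1 reached 8.39%, but it was far deeper than most mRNAs. At a mean coverage of 1000 reads or more, 13 of 124 Ftl1 cytosines passed (10.5%), against 11.2% of 12435 cytosines of other genes. At 100 to below 1000 reads, 10 of 131 passed (7.63%), against 1.83%, and below 100 reads 2 of 43 (4.65%), against 0.155%. Deep models were set beside it, 54 others with a mean of at least 1000 reads over at least 100 testable cytosines. Their share that passed ran from 2.73% to 19.8% with a median of 7.46%, and 22 models exceeded Ftl1. They need not be as deep as Ftl1, which only 35 of 12708 models exceeded in reads per listed cytosine.

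The first bases of the Ftl1 model are shown because they mark where its coverage sets in. They could be set beside the data, since the RefSeq promoter table (GRCm38.p6) reaches to position 50 of the model. All 11 cytosines that its letters hold from position 10 to 50 were listed, and no other position there was. The stretch below lies on the minus strand at chr7:45459846-45459875, and capitals mark a TATAAA, the letters of the TATA box, at positions 18 to 23.
Ftl1 positions 12 to 41: acatgcTATAAAaggagcgctccttgcccg
The letters TATAAA, read on both strands, stand in 1.36% of the 32544 promoter windows of the same 50 bases after a start. Of the other genes with listed cytosines, Tfrc had none listed before position 75, and no promoter sequence of Slc11a2 or Slc40a1 was used here.

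Coverage of Ftl1 was thin over those letters and rose just after them. Position 45 had 22, 40 and 26 reads, position 52 had 260, 316 and 259, and position 67 had 1014, 1104 and 1078. A first peak stood at position 76 with 1212, 1297 and 1294 reads, and coverage was down to 279, 187 and 196 reads at position 139. It was highest at position 441, with 10345, 11049 and 9638 reads, and a trough of 20 to 45 reads lay between positions 761 and 795. The 3 libraries shared this profile. Annotated pseudogene copies of Ftl1 exist (Ftl1-ps1 and Ftl1-ps2), so the origin of a part of its reads is uncertain.

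**Figure D2:**
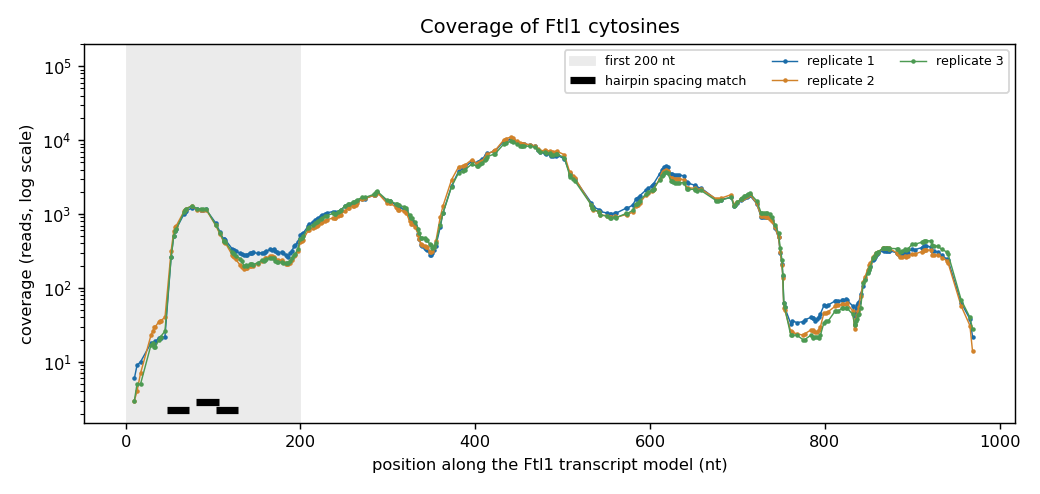
Coverage in reads on a log scale (y axis) of each listed Ftl1 cytosine against its position in the transcript model (x axis), 1 line per replicate. The grey field is the first 200 nt and black bars are the 3 stretches in it with the cytosine spacing and stems of the hairpin. Such stretches further along are not drawn. The libraries run together, with under 50 reads up to position 45, a peak of 9638 to 11049 at position 441 and a trough between positions 761 and 795.

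The 5′ end of Ftl1, where its hairpin is known to lie, was compared with the rest. The borders of the UTRs were not at hand, so the first 200 nt stand for the hairpin-bearing end. They held 63 cytosines with an unconverted share of 1.55%, 1.43% and 1.47% in replicates 1, 2 and 3, against 1.56%, 1.44% and 1.42% in the other 238. The difference averaged 0.0086 ± 0.0357 percentage points (SD, n = 3), well within its spread, and the end was higher in 1 of 3 libraries. The exact sign-flip test gave p = 1, and 3 libraries cannot go below 0.25.

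Stretches of other lengths lay below the rest, by -0.196 percentage points for the first 100 nt and -0.215 for the first 300 nt. The mean of single cytosines in place of summed reads gave -0.199. A fit of the same contrast over all models with at least 500 reads in both parts (limma) called 1 of 3641 models higher (0.0275%) and 0 lower (0%), with 905 at an unadjusted p below 0.05. Ftl1 stood at 0.0109 log2 odds (95% interval -0.27 to 0.29, adjusted p = 0.967), against a median of 0.0977 over all models.

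The hairpin itself could be sought only by its cytosines. The bulged cytosine and, 6 nt on, the loop start CAGTG require a listed cytosine, another at that distance, and none at the 4 positions after it. This spacing was found at 7 cytosines in the first 200 nt of Ftl1. In 3 of these no cytosine faced another across stems of 5 bases on either side of the bulge, starting at positions 52, 86 and 108. Such spacings are common: 7.75% of all 4450412 listed cytosines had the first and 4.29% had the stems too. Which of the 3, if any, is the hairpin cannot be told from cytosine positions alone, and only the sense strand was searched.

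The whole stretch from position 52 had an unconverted share of 1.14%, 1.00% and 1.18%, below the rest of the mRNA in each library. The stretch from 86 had 1.85%, 1.56% and 1.29%, and that from 108 had 1.53%, 1.95% and 1.82%, each higher than the rest in 2 of 3 libraries. The 20 cytosines of the 3 stretches together, which leave out position 76 between them, had an unconverted share of 1.45%, 1.39% and 1.37% in replicates 1, 2 and 3, against 1.56%, 1.44% and 1.42% elsewhere in Ftl1. The pooled share was lower in each library, with a mean difference of -0.0736 ± 0.0365 percentage points (SD, n = 3, exact sign-flip p = 0.25, the smallest that 3 libraries allow). They had 688, 690 and 690 reads on average.

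Stem and unpaired cytosines were then set side by side. In the stretch that starts at position 52, cytosines of the supposed stems stood at 1.22%, 1.00% and 0.962%, and those of the supposed bulge and loop at 0.782%, 0.986% and 2.25%, which overlap. In the stretch from position 86, the stems had 2.32%, 1.74% and 1.40%, against 1.22%, 1.31% and 1.14% in bulge and loop. In that from position 108 they had 1.74%, 2.15% and 1.89%, against 0.882%, 1.38% and 1.63%. In the stretches from 86 and 108 the stem values were higher in 3 of 3 libraries and did not overlap. Of the stretches with this spacing and stems further along Ftl1, that from position 508 went the other way. Its stems had 1.31%, 1.33% and 1.48%, against 2.12%, 2.03% and 2.00% in bulge and loop. In those from 349, 555 and 652 the values overlapped. Each value rests on only 2 to 7 cytosines, and the stems from 86 and 108 share position 103. Those from 108 also include position 112, which had 3.08%, 4.24% and 2.76% and passed the adjusted test at any level. Coverage fell at position 112, to 0.797, 0.800 and 0.777 of that at the preceding listed cytosine. How often stems and unpaired cytosines part in this way over all transcripts was not computed, so no result about the hairpin is read from it. The comparison was chosen after seeing the data.

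Single positions at this end varied. Around position 86, the supposed bulge had 1.31%, 1.59% and 1.27% and the supposed loop cytosine at 92 had 1.13%, 1.04% and 1.02%. Position 103 reached 2.64%, 2.28% and 1.68% from 758, 703 and 714 reads. Of the 25 Ftl1 cytosines that passed at any level, 2 lay among the 60 testable ones of the first 200 nt. These were position 112 with 3.08%, 4.24% and 2.76% (adjusted p = 0.00133, combined exact binomial test) and position 180 with 5%, 3.52% and 2.27% (adjusted p = 0.0109).

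The other 23 lay further along, among 238 testable cytosines. The largest group, 7 of 14 testable cytosines between positions 722 and 753, had mean shares from 3.56% to 8.55%. Position 751 was unconverted in 48 of 653 reads, or 6.67%, 7.84% and 7.53%, and position 753 in 15 of 180 reads, or 6.35%, 13.0% and 6.35%. Position 777 reached 7.42% ± 2.98 but did not pass (adjusted p = 0.591, combined exact binomial test). Position 832 had 7.24% ± 1.37 (SD, n = 3) and position 868 had 4.94% ± 1.15. Of the 3 deepest cytosines, those that passed had 1.82% ± 0.190 at position 441 from 31032 reads and 1.92% ± 0.0818 at position 443. The third, position 435, had 1.35% ± 0.0779 and lay below the background in each library.

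Of the 25, 8 had a mean share below 3%, 12 had 3% to below 5%, and 5 had 5% or more. The small excesses recurred between libraries. Across the 255 Ftl1 cytosines with at least 100 reads in each library, any pair of libraries correlated with a Pearson's r from 0.716 to 0.752 and a Spearman's rho from 0.477 to 0.609. These points share an mRNA, and neighbours share reads.

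Shares were higher where coverage dropped from a cytosine to the next. Coverage was more than 10% below that of the preceding listed cytosine, in each library, at 12 of the 25 cytosines (48%) and at 20 of the 273 other testable ones (7.33%). In the run from 722 to 753 it was 63, 54 and 63 reads at the last cytosine, against 1386, 1393 and 1514 at the first. The 32 cytosines at such drops had a median share of 3.18%, against 1.34% at the other 266. This was noticed in the data and is given as a description. The part of read ends in these shares was not tested.

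**Figure D3:**
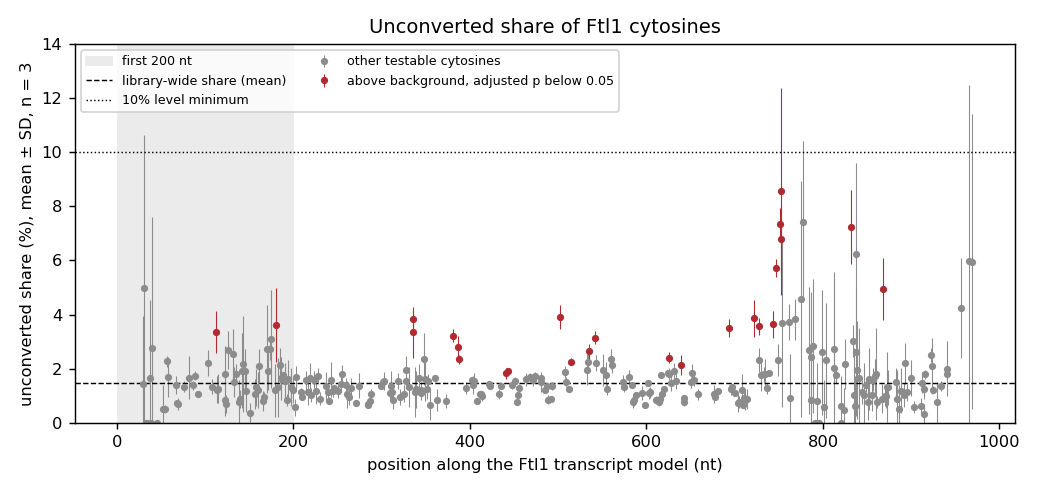
Mean unconverted share in percent with its SD over 3 libraries (y axis) of each testable Ftl1 cytosine against its position (x axis), with the library-wide mean as a dashed line. Red points are the 25 cytosines above the background at an adjusted p below 0.05, of which 2 lie in the grey first 200 nt and 7 between positions 722 and 753, and all means stay below the dotted 10% line.

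Tfrc carries its hairpins in the 3′ UTR. The borders of this UTR were not at hand, so the last 1000 nt, up to the last listed cytosine at 4884, were compared with the rest. Whether the hairpins lie within these 1000 nt was not determined. The share there was 1.27%, 1.26% and 0.852% in replicates 1, 2 and 3, against 1.62%, 1.47% and 1.43% in the rest. The end was lower in 3 of 3 libraries and the 2 parts did not overlap. How many other models part in this way was not counted. The difference averaged -0.379 ± 0.186 percentage points (SD, n = 3, exact sign-flip p = 0.25, the smallest possible).

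Over all models with enough reads, the fit called 0 of 4483 higher (0%) and 0 lower (0%), with 654 at an unadjusted p below 0.05. Tfrc stood at -0.41 log2 odds (limma, 95% interval -0.78 to -0.05, adjusted p = 0.311), against a median of -0.0472. Of all models, 7.45% fell below this value. The direction was the same with a window of 500 or 2000 nt and without any of the libraries. It shrank to -0.0155 percentage points as a mean over single cytosines. The first 200 nt of Tfrc, which hold no known hairpin, stood at 0.13 log2 odds over its rest (-0.21 to 0.46, adjusted p = 0.578).

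The 3′ end of Tfrc was also less deeply read, with 13.7, 13.0 and 12.0 reads per listed cytosine, against 36.7, 32.8 and 27.9 in the rest, a ratio of 0.400 ± 0.0275 (SD, n = 3). The medians differed less, with a ratio of 0.832. Coverage was uneven along the whole mRNA, with 592, 640 and 517 reads at position 465 and a stretch without any listed cytosine from 3055 to 3187. The hairpin spacing with stems occurred at 50 of 785 listed cytosines (6.37%), 8 of them in the last 1000 nt, which is too often to place the hairpins. Each of those 8 stretches held at most 148 reads in a library, summed over its cytosines.

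The 2 Tfrc cytosines above the background lay in the same stretch, before the last 1000 nt. Position 2804 was unconverted in 29 of 713 reads, or 5.20%, 3.94% and 2.87% (adjusted p = 0.00306, combined exact binomial test). Position 2816 was unconverted in 21 of 512 reads, or 3.95%, 2.67% and 6.08% (adjusted p = 0.0214). Neither passed without replicate 1, 1 passed without replicate 2 and 1 without replicate 3, and neither passed when each library had to pass on its own. The highest mean shares, 5.67% to 6.30% at positions 267, 2128 and 2733, came from 44 to 95 reads and did not pass. The deepest cytosines, at positions 465, 469 and 444, had 2.54% ± 0.830, 0.958% ± 0.475 and 2.18% ± 0.505 (SD, n = 3), and none of them passed.

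**Figure D4:**
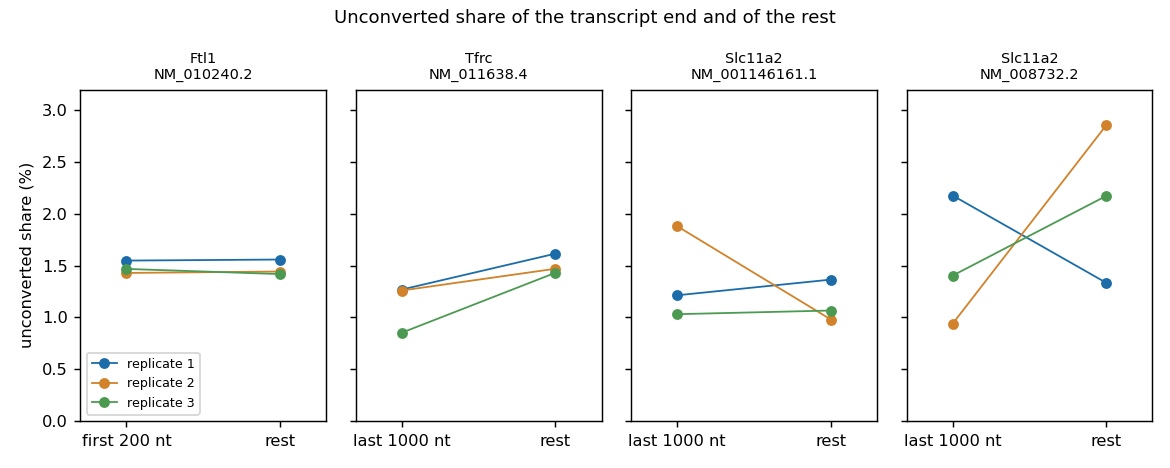
Unconverted share in percent (y axis) of the window compared (left) and of the rest of the same model (right), with 1 line per replicate. The window lies at the start of the Ftl1 model and at the end of the Tfrc and Slc11a2 models. Whether the windows of Tfrc and Slc11a2 hold a hairpin was not determined. The lines are flat for Ftl1, rise towards the rest in all 3 replicates for Tfrc, and cross for both Slc11a2 models.

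Slc11a2 was listed only from position 1727 on in the longer and 1735 on in the shorter model, and the rest of the shorter model held only 38 listed cytosines. The files do not say which model carries the hairpin or where it lies, so the last 1000 nt of both were compared with the rest. In the longer model, the last 1000 nt had 1.21%, 1.88% and 1.03%, against 1.36%, 0.979% and 1.07% at the listed positions before 3316. The difference of 0.238 ± 0.577 percentage points was smaller than its spread, and only replicate 2 was higher at the end. The fit gave 0.29 log2 odds (limma, 95% interval -0.34 to 0.91, adjusted p = 0.604), and a window of 2000 nt turned it to -0.20.

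In the shorter model the last 1000 nt had 2.18%, 0.939% and 1.40%, against 1.33%, 2.86% and 2.17% in the 70 to 92 reads of the rest. The 2 parts overlapped. No cytosine of either model passed the adjusted test at any level, and before adjustment 1 of the 90 had a combined p below 0.05. This was position 2008 of the longer model, with 4 unconverted reads of 47, or 6.67%, 0% and 17.6%. The deepest cytosine of the longer model, at position 1955, had 105, 131 and 110 reads, and a second peak at position 3225 had 78, 76 and 87. The shares at its deepest cytosines, 1955, 1953 and 1938, were 1.08% ± 1.15, 0.880% ± 0.102 and 1.64% ± 1.86 (SD, n = 3). Positions 1758 and 3896 had the next highest means after 2008, each from 2 unconverted reads. In the shorter model the highest means, at positions 2871, 2877 and, tied, 2865 and 2324, came from 1 or 2 unconverted reads in a single library. Its deepest cytosines, 2517, 2527 and 2532, had 0 unconverted among 48, 49 and 48 reads.

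Both models had reads in every library. Summed coverage was 4121, 4221 and 3968 reads for the longer and 810, 1028 and 1018 for the shorter model. Per listed cytosine this was 14.4 ± 1.33 for the longer and 6.27 ± 0.104 for the shorter (SD, n = 3), and the library values did not overlap. The listing minimum of 3 reads raises the lower of these values, so their ratio is not given.

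Slc40a1 had 186, 98 and 133 listed cytosines, 44 of them in all 3 libraries. At its hairpin-bearing 5′ end, 5 cytosines between positions 168 and 192 were listed in replicate 1 and 0 in the other two. Those 5 had 15 reads in all with 0 unconverted, which allows no useful limit, and no comparison with the rest was made. Its reads were deepest towards the 3′ end, with 5.91, 4.98 and 6.51 per listed cytosine at positions 2001 to 3000, against 4.45, 4.64 and 5.09 at positions 1 to 1000.

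**Figure D5:**
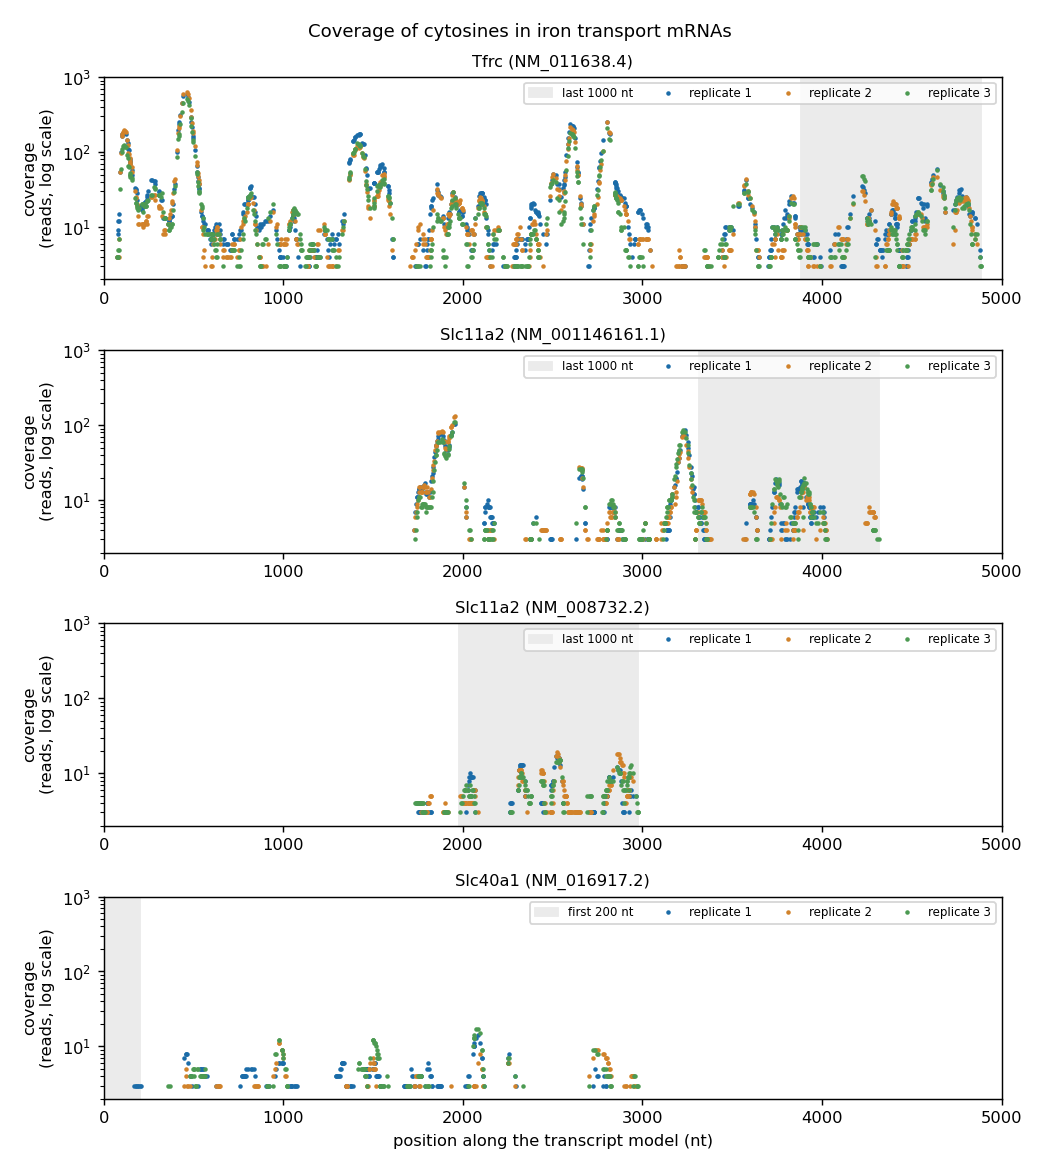
Coverage in reads on a log scale (y axis) of each listed cytosine against its position in the model (x axis), 1 panel per model and 1 colour per replicate, with the window compared in grey. Tfrc peaks near position 465 with 517 to 640 reads, both Slc11a2 models begin beyond position 1700, and Slc40a1 has almost no listed cytosine in its first 200 nt.

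Other genes of iron handling were read beside the hairpin-bearing set from a list of 38 genes, of which 31 had listed and 24 had testable cytosines. They held 5 candidates in 4 genes among 4139 testable cytosines (0.121%), against 0.0473% of all, and 25 cytosines (0.604%) in 8 genes passed at any level, against 0.469% of all. Of these 25, 12 lay in Pcbp1. Glrx5, a mitochondrial iron-sulphur cluster carrier, had 14.5% ± 4.68 at position 40 from 17 to 22 reads. Slc25a37, the mitochondrial iron importer mitoferrin, had 13.7% ± 14.8 at position 1770 and 10.7% ± 3.54 at position 252. Pcbp1, which hands iron to ferritin, had 12.1% ± 4.85 at position 1511, and Glrx3, a cytosolic cluster carrier, had 11.4% ± 5.71 at position 62 (SD, n = 3).

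The spread at position 1770 of Slc25a37 was as large as its mean, with 30.8%, 6.25% and 4.17%. No candidate was found in Ireb2 or Aco1, the iron regulatory proteins themselves, among 376 and 205 testable cytosines. Epas1, which also carries a 5′ hairpin, had 0 candidates among 122. At any level, 2 cytosines of Ireb2 passed. Alas2 and Cdc14a had no listed cytosine, and App had 0 testable ones. In the fit over models, 0 of 21 iron genes were called, but so were 0 of all 8484 models, so this count does not set them apart. An unadjusted p below 0.05 (limma) was found for 7 of the 21, against 17.4% of all models. Their median was 0.0362 log2 odds, with a range from -0.59 for Flvcr1, a haem exporter, to 0.45 for Hmox2, a haem oxygenase.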

How the data were processed

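Per the labels' protocols, polyadenylated RNA was fragmented, converted with bisulfite and read from both ends. Per the submitters' processing notes, BSMAP and the build mm9 were used. No version, counter or annotation was given in the sources used here. The authors deposited for each cytosine of a RefSeq mRNA a coverage, which is a raw count of reads, and the part of it left unconverted as a fraction, with no coverage below 3. The product of both gave the unconverted reads and was whole (tolerance 1e-06) at 100% of values. Shares are printed as percentages. Intervals and limits cover counting error only, since copies made by PCR cannot be told apart.

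Model identifiers were matched by accession without version to symbols of GRCm38.p6, and 14932 of 15021 matched. That annotation served for names and, in a promoter table, for letters of the Ftl1 start.

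Members and lists were chosen with earlier results of these data known. Tests over all cytosines used exact binomial tests, and those over all models used limma 3.58.1 in R 4.3.3, with a prior count of 0.5 and at least 500 reads per part. Each was first tested on simulated data. Other values were computed in Python 3.11.15 with scipy 1.17.1. Named were all members, their candidates, the 3 cytosines with the highest share and the 3 deepest of each model, and other iron genes with a candidate or a known hairpin. Some genes that this rule selects are left out of the text. Other positions were named after their values were seen. The hairpin-bearing UTR was to be placed from the protein, and for want of it the first 200 nt or the last 1000 nt were used, as the design foresaw. Alternatives changed the coverage and level minimums, the p-value combination, the background, the window, the prior count, the summary over cytosines and the libraries included. Some windows, the count at any level and the hairpin spacing with stems were chosen after seeing the data.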

Additional observations from a re-analysis of the deposited data

How the results depend on the processing

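No paired analysis was possible because all samples belong to 1 group. The alternatives that take UTR borders from the protein or set the rest to the coding sequence were not run, as no protein or transcript sequence was used here. Candidates in the iron mRNAs stayed at 0 under coverage minimums of 5 and 20 reads, with the background of the same model, with the highest p-value and without each library. They numbered 5 at a level minimum of 5% and 27 with none. The count at any level was 20 to 24 with a library left out and 7, all in Ftl1, with the highest of the 3 p-values, which asks each library to pass alone.

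None of the members' 53 values was called under the limma alternatives (adjusted p from 0.0959 to 0.988), but 8 of them changed sign. Not all of these were near 0: the last 1000 nt of the longer Slc11a2 model stood at 0.29 log2 odds in the main fit. Without 1 library the shorter Slc11a2 model ran from -0.13 to 0.31 log2 odds, Tfrc from -0.0147 to 0.0261, the first 200 nt of Ftl1 from -0.00993 to 0.0224, and the last 1000 nt of the longer Slc11a2 model from -0.0557 to 0.49. Tfrc stood at -0.157 percentage points as a mean of single cytosines, Ftl1 at -0.21 and -0.23 log2 odds with windows of 100 and 300 nt, and the longer Slc11a2 model at -0.20 with 2000 nt. With a prior count of 2, the first 200 nt were called in 135 models higher and 11 lower, against 1 and 0, and with 100 nt in 31 and 27. The cause was not tested.

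Unconverted shares of the end minus the rest moved for Ftl1 to -0.199 (mean of single cytosines), -0.196 (100 nt) and -0.215 (300 nt), and for Tfrc to -0.0155 (mean of single cytosines), in percentage points. Ratios of coverage moved, with medians in place of means, to 0.262 for Ftl1, 0.832 for Tfrc, 0.914 for the longer and 1.72 for the shorter Slc11a2 model, against 0.200, 0.400, 0.438 and 2.02. Other windows gave 0.306 (100 nt) and 0.323 (300 nt) for Ftl1, 0.521 (500 nt) and 0.316 (2000 nt) for Tfrc, 0.514 and 0.379 for the longer, and 1.27 (500 nt) for the shorter Slc11a2 model. Depth limits Tfrc, Slc11a2 and Slc40a1. In a single library, 0 unconverted reads at the median testable coverage left 11.6% possible in Tfrc, and 12.2% and 22.5% in the Slc11a2 models. Slc40a1 had 0 testable cytosines. The smallest share that the joined test could call in these mRNAs was not computed.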
